A study of Mus musculus with 8 samples.

Results

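The genes of DNA replication were followed in mouse adipocyte cultures in which a microRNA had been blocked. A list of 45 genes, chosen with earlier results of these data known, was read by gene name from 3 deposited tables of 18933 genes each. All 45 had a row and a test in every table. Precursor-rich stromal vascular cells, freed from fat by collagenase, were transfected with locked nucleic acid (LNA) oligonucleotides at 100 nM. Differentiation was then induced with rosiglitazone, insulin, dexamethasone and the phosphodiesterase inhibitor IBMX, and RNA was taken on day 4, per the labels' protocols. The 4 groups of 2 samples each were a miR-182 inhibitor, a miR-203 inhibitor, a miR-708 inhibitor and a control transfection labelled NC. All groups shared the culture, the induction and the harvest day. Neither the strain nor the depot is labelled, although brown adipocytes appear in the title of the series. The control oligonucleotide is not described, nor is it stated that samples within a group had different animals or dishes as their source. Values are FPKM (fragments scaled for transcript length and for library size), with 1 value per group, read here as the authors' pooled estimate of its 2 samples. They carry no spread between replicates, so "rose" and "called higher" mean only that the authors' deposited table gives a q-value below 0.05, and that q-value may rest on technical spread alone.

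Replication starts at origins that are licensed before S phase, when the origin recognition complex, CDC6 and CDT1 load the MCM helicase onto DNA. In S phase the helicase is activated by CDC45 and the GINS complex, and primase, polymerases, the PCNA clamp and its loader copy both strands while deoxynucleotides are supplied by enzymes such as ribonucleotide reductase. Many of these genes are transcribed by E2F factors once RB proteins release them. In mouse preadipocyte lines, hormonal induction is followed by a round of cell division before terminal differentiation, after which adipocytes no longer divide.

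The blocked microRNAs are shown first because each comparison is named for one of them, and the capitals mark the seed (bases 2 to 8), through which a microRNA pairs with its targets. The labels do not name the arm; the arm shown is the one that the plain name usually stands for. Sequences are from RefSeq on GRCm38.p6.
mmu-miR-182-5p (chr6:30165962-30165986, minus strand): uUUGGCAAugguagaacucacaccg
mmu-miR-203-3p (chr12:112130927-112130948, plus strand): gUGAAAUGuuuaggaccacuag
mmu-miR-708-5p (chr7:96249450-96249472, plus strand): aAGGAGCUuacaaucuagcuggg
The 3 seeds differ, so the comparisons below concern microRNAs of separate seed families.

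Promoters of replication genes are shown next because E2F-type words lie in them. Each stretch covers the 170 bases before the RefSeq transcription start on GRCm38.p6, and capitals mark the words TTTCCCGC, TTTCGCGC, TTTGCCGC and TTTGGCGC on either strand, merged where words overlap. Mcm5 and Mcm6 were called higher with every inhibitor in the authors' deposited tables, and Cdc6, which holds a word too, was called with none. The Cdc6 stretch precedes a RefSeq start that lies inside the deposited locus of Cdc6 (chr11:98907800-98923940). It is therefore not sequence before that locus.
Mcm5 (chr8:75109339-75109508, plus strand): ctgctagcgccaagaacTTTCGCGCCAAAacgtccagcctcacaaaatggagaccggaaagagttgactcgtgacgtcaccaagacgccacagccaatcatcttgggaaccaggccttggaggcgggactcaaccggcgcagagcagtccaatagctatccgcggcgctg
Mcm6 (chr1:128359706-128359875, minus strand): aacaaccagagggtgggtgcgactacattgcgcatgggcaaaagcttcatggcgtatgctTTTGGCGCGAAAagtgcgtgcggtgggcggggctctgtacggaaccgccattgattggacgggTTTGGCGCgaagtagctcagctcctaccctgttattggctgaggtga
Cdc6 (chr11:98907981-98908150, plus strand): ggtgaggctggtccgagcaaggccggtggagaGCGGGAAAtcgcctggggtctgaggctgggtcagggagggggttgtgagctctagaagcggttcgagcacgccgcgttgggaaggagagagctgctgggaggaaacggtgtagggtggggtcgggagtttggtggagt
The Mcm5 words overlap, on opposite strands, at positions -153 to -142 relative to the start, and those of Mcm6 lie at positions -110 to -99 and -47 to -40.

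Over the whole group, replication genes mostly stood above the control with each inhibitor, and the miR-182 inhibitor had the most calls. With a background of 8.40% of tested genes called higher, 17 of 45 members (37.8%) rose with the miR-182 inhibitor in the authors' deposited table. With the miR-203 inhibitor 8 of 45 (17.8%) rose in the authors' deposited table, against 4.72% of all tested genes, and with the miR-708 inhibitor 10 of 45 (22.2%) rose, against 4.51%. No member was called lower in any of the authors' deposited tables, where 6.23%, 2.51% and 3.05% of tested genes were called lower with the miR-182, miR-203 and miR-708 inhibitors. At an unadjusted p below 0.05 in the authors' deposited tables, 0 members were lower in each comparison, where 13.2%, 7.97% and 8.58% of tested genes were. At that p, 24, 15 and 18 members were higher, where 14.3%, 9.84% and 9.97% of tested genes were. The 3 comparisons share the control samples, so a low control value raises all of them together.

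The median ratio of inhibitor to control FPKM over the 45 members was 1.42 for miR-182, 1.25 for miR-203 and 1.22 for miR-708, where all tested genes had medians of 0.992, 0.994 and 0.988. As log2((inhibitor + 1) / (control + 1)), the members' medians were 0.40, 0.23 and 0.25. FPKM stood above the control for 40, 36 and 43 of the 45 members, against 48.7%, 48.7% and 47.5% of tested genes. Summed over the members, levels came to 431 FPKM with the miR-182 inhibitor, 383 with the miR-203 inhibitor, 404 with the miR-708 inhibitor and 331 in the control. Members ranged from 0.594 FPKM (Pole2) to 29.7 FPKM (Mcm7) in the control, and 43, 42 and 41 of them reached a mean of 1 FPKM over the inhibitor and control groups.

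**Figure D1:**
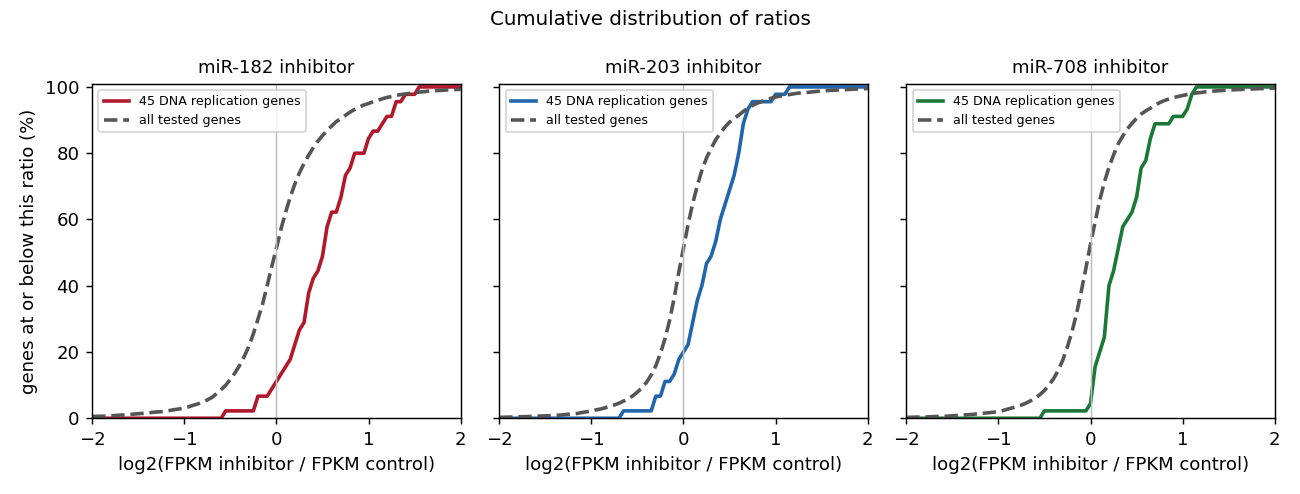
Cumulative share of genes (%) against log2 of inhibitor over control FPKM, 1 panel per inhibitor, for the 45 replication genes (solid line) and all tested genes (dashed line). The solid line lies right of the dashed one over most of its range in each panel, with median ratios of 1.42, 1.25 and 1.22 for the members.

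**Figure D2:**
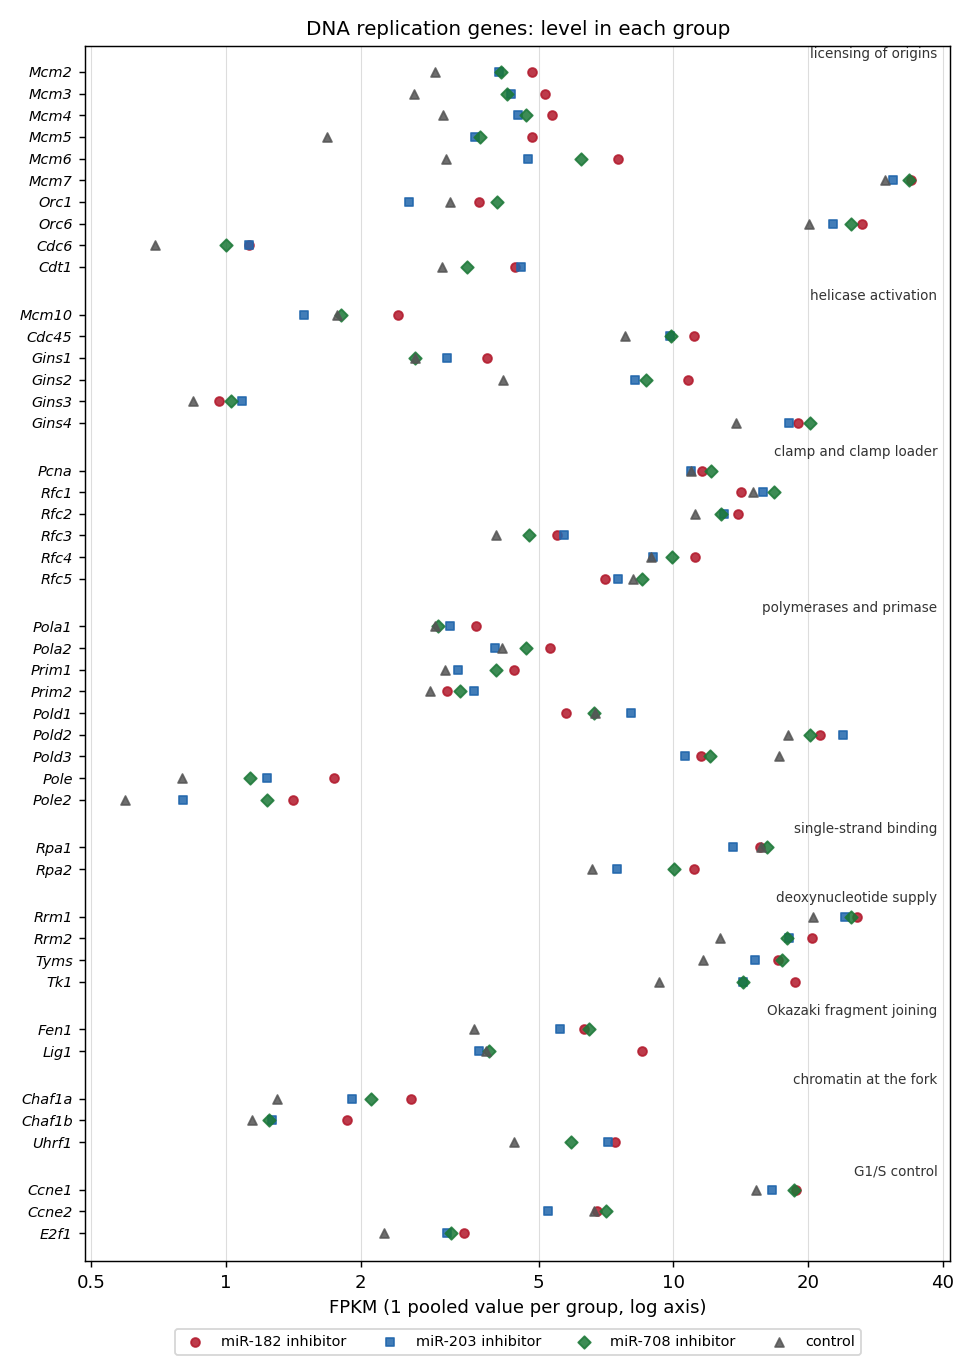
FPKM (log axis) of each of the 45 genes, grouped by role, with 1 pooled value per group: miR-182, miR-203 and miR-708 inhibitors and control. For Mcm2 to Mcm6 the 3 inhibitor values lie above the control value, while Pcna and Rfc1 lie close together in all 4 groups.

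The MCM helicase subunits held the clearest changes. Mcm2 to Mcm7 encode the 6 subunits of the ring that unwinds DNA at the fork. Mcm5 (chr8:75109527-75128439, as the tables give it on mm10) stood at 4.84 FPKM with the miR-182 inhibitor, 3.60 with miR-203, 3.70 with miR-708 and 1.68 in the control. That made ratios of 2.88, 2.14 and 2.21, the largest among the 45 members in each comparison, all with q = 0.00176 in the authors' deposited tables. Mcm6 (chr1:128331590-128359656) stood at 7.51, 4.72 and 6.23 FPKM with the miR-182, miR-203 and miR-708 inhibitors and 3.10 FPKM in the control, and it rose with each (q = 0.00176 in the authors' deposited tables). The miR-203 value of Mcm6 was the lowest of the 3 inhibitor values, with a ratio of 1.52 beside 2.42 and 2.01.

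Mcm3, Mcm4 and Mcm2 also rose with each inhibitor in the authors' deposited tables, at ratios of 1.96, 1.64 and 1.61 for Mcm3, 1.74, 1.47 and 1.53 for Mcm4, and 1.65, 1.39 and 1.40 for Mcm2. Mcm3 (chr1:20802973-20820278) had 5.17, 4.33 and 4.25 FPKM with the miR-182, miR-203 and miR-708 inhibitors and 2.64 FPKM in the control (q = 0.00176 in each of the authors' deposited tables). Mcm4 (chr16:15623896-15637400) had 5.34, 4.49 and 4.69 FPKM in the same order and 3.06 FPKM in the control, with q-values of 0.00176, 0.00463 and 0.00176 in the authors' deposited tables. Mcm2 (chr6:88883474-88898780) had 4.83, 4.07 and 4.12 FPKM and 2.94 FPKM in the control, with q-values of 0.00176, 0.0104 and 0.00591 in the authors' deposited tables. These 5 subunits lay close to each other in level, between 4.83 and 7.51 FPKM with the miR-182 inhibitor and between 1.68 and 3.10 FPKM in the control.

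Mcm7 stood apart from the other subunits of the same ring. It had 33.9, 30.9 and 33.5 FPKM with the miR-182, miR-203 and miR-708 inhibitors and 29.7 FPKM in the control, and was not called (q of 0.949, 0.995 and 0.955 in the authors' deposited tables). Its level was 6.12, 7.29 and 7.29 times the mean of the other 5 subunits with the inhibitors and 11.1 times in the control. The tables give its locus (chr5:138161070-138187451) jointly to Ap4m1, Cops6 and Taf6, and how fragments were divided among these genes was not tested.

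Among the 4 members that help load the helicase, Orc6 was the one called in the authors' deposited tables, with the miR-182 inhibitor. Other subunits of the origin recognition complex lie outside the list of members and were counted among the further genes below. Orc6, a subunit of the origin recognition complex, had 26.4, 22.7 and 24.9 FPKM with the miR-182, miR-203 and miR-708 inhibitors and 20.1 FPKM in the control. Its ratio with the miR-182 inhibitor was 1.31 (q = 0.0318 in the authors' deposited table), and the others had q of 0.645 and 0.156. Orc1, the ATPase subunit of that complex, had 3.68, 2.57 and 4.04 FPKM with the inhibitors and 3.17 in the control and was called in none of the authors' deposited tables. Cdc6 and Cdt1, which bring the helicase to the origin recognition complex, were not called either. Cdc6 had 1.12, 1.12 and 0.999 FPKM with the inhibitors and 0.695 FPKM in the control, at ratios of 1.62, 1.62 and 1.44. Cdt1 had 4.42, 4.56 and 3.45 FPKM and 3.04 FPKM in the control. Cdt1 ratios of 1.45 and 1.498 came with p-values of 0.888 and 0.883 in the authors' deposited tables for miR-182 and miR-203, a point taken up below.

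Of the 6 members that help activate the loaded helicase, Gins4 was called with the miR-182 and miR-708 inhibitors. The products of Gins1, Gins2, Gins3 and Gins4 form a ring-shaped complex that joins CDC45 and the MCM ring in the active helicase. Gins4 had 19.0, 18.1 and 20.2 FPKM with the miR-182, miR-203 and miR-708 inhibitors and 13.8 FPKM in the control. Its q-values were 0.0181, 0.0542 and 0.00176 in the authors' deposited tables, so the miR-203 value, at a ratio of 1.31, lay just past the threshold. Gins2 had 10.8, 8.20 and 8.67 FPKM with the inhibitors and 4.16 FPKM in the control, ratios of 2.59, 1.97 and 2.08 that were not called (q of 0.961, 0.984 and 0.981 in the authors' deposited tables).

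The remaining activators among the members were called with no inhibitor in the authors' deposited tables. Cdc45 had 11.1, 9.83 and 9.86 FPKM with the miR-182, miR-203 and miR-708 inhibitors and 7.77 FPKM in the control. Gins1 had 3.84, 3.12 and 2.65 FPKM and 2.65 FPKM in the control, and Gins3 had 0.964, 1.09 and 1.03 FPKM and 0.846 FPKM in the control. Mcm10, which binds the activated helicase, had 2.42, 1.49 and 1.81 FPKM with the inhibitors and 1.77 FPKM in the control.

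The sliding clamp and its loader had no called member among 6 in the authors' deposited tables, where 1, 1 and 0 were higher at an unadjusted p below 0.05. Of all tested genes, 8.40%, 4.72% and 4.51% were called higher, so none among 6 lies near that background. At the unadjusted p, 14.3%, 9.84% and 9.97% of all tested genes were higher. Pcna, the clamp that holds polymerases on DNA, had 11.6, 10.95 and 12.1 FPKM with the miR-182, miR-203 and miR-708 inhibitors and 10.97 FPKM in the control (q of 0.948, 0.998 and 0.757 in the authors' deposited tables). Rfc1, the large subunit of the loader, had 14.2, 15.9 and 16.7 FPKM and 15.1 FPKM in the control. Median ratios over the 6 genes were 1.15, 1.03 and 1.11. Among the small subunits, Rfc3 had the highest ratios (1.37, 1.42 and 1.18, with 4.01 FPKM in the control) and Rfc5 the lowest (0.870, 0.929 and 1.05, with 8.11 FPKM in the control). Rfc2 (11.2 FPKM in the control) and Rfc4 (8.91 FPKM) had ratios between 1.01 and 1.25.

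Of the 9 polymerase and primase genes, 3, 0 and 1 rose with the miR-182, miR-203 and miR-708 inhibitors in the authors' deposited tables, where 4, 2 and 3 were higher at an unadjusted p below 0.05. Among all tested genes, 8.40%, 4.72% and 4.51% rose, and 14.3%, 9.84% and 9.97% were higher at that p. Pole and Pole2 encode the catalytic and the second subunit of polymerase epsilon, which copies the leading strand. Pole had 1.74, 1.23 and 1.13 FPKM with the miR-182, miR-203 and miR-708 inhibitors and 0.798 FPKM in the control, and rose with miR-182 (q = 0.00176 in the authors' deposited table) but was not called with the others (q of 0.0822 and 0.208). Pole2 had 1.42, 0.804 and 1.23 FPKM and 0.594 FPKM in the control, and rose with the miR-182 (ratio 2.38, q = 0.00176) and miR-708 inhibitors (ratio 2.08, q = 0.0135) in the authors' deposited tables. Both genes were below 1 FPKM in the control.

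Polymerase delta, the lagging-strand polymerase, had no called subunit in the authors' deposited tables, and none of Pold1, Pold2 and Pold3 had an unadjusted p below 0.05. No call among so few genes lies near the share of all tested genes called higher (8.40%, 4.72% and 4.51%). At the unadjusted p, 14.3%, 9.84% and 9.97% of all tested genes were higher and 13.2%, 7.97% and 8.58% lower. Pold1, its catalytic subunit, had 5.75, 8.02 and 6.65 FPKM with the miR-182, miR-203 and miR-708 inhibitors and 6.69 FPKM in the control, and Pold2 had 21.3, 23.9 and 20.1 FPKM and 18.02 FPKM in the control. Pold3 had 11.5, 10.6 and 12.04 FPKM and 17.2 FPKM in the control. Its ratios of 0.670, 0.618 and 0.701 were the lowest of the 45 members in each comparison, and with p-values of 0.389, 0.247 and 0.418 they were not called in the authors' deposited tables.

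Primase and polymerase alpha start each new strand. Prim1, the catalytic primase subunit, had 4.40, 3.29 and 4.02 FPKM with the miR-182, miR-203 and miR-708 inhibitors and 3.09 FPKM in the control, and rose with miR-182 (ratio 1.42, q = 0.0240 in the authors' deposited table). Prim2, Pola1 and Pola2 were not called in the authors' deposited tables, with ratios between 0.964 and 1.28. Their control levels were 2.86, 2.94 and 4.13 FPKM. Of the single-strand binding proteins, Rpa2 had 11.1, 7.48 and 10.02 FPKM with the inhibitors and 6.59 FPKM in the control, and rose with miR-182 (ratio 1.69, q = 0.0181 in the authors' deposited table). Rpa1, the large subunit of the same complex, had 15.6, 13.6 and 16.2 FPKM and 15.7 FPKM in the control and was not called.

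The deoxynucleotide enzymes stood above the control in every comparison. Rrm2, the small subunit of ribonucleotide reductase whose amount rises in S phase, had 20.4, 18.1 and 17.9 FPKM with the miR-182, miR-203 and miR-708 inhibitors and 12.7 FPKM in the control. It rose with each (q of 0.00176, 0.0272 and 0.0355 in the authors' deposited tables). Tyms, thymidylate synthase, had 17.1, 15.2 and 17.5 FPKM and 11.6 FPKM in the control, and rose with miR-182 (q = 0.0153) and miR-708 (q = 0.00463) in the authors' deposited tables but was not called with miR-203 (q = 0.125).

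Tk1, the cytosolic thymidine kinase of dividing cells, had 18.7, 14.3 and 14.3 FPKM with the miR-182, miR-203 and miR-708 inhibitors and 9.29 FPKM in the control. It rose with miR-182 (ratio 2.01, q = 0.0303 in the authors' deposited table) and was not called at ratios of 1.54 and 1.54 (q of 0.290 and 0.284). The tables give its locus jointly to Afmid, Gm20708 and Syngr2. Rrm1, the large reductase subunit, had 25.7, 24.2 and 24.9 FPKM and 20.5 FPKM in the control and was called in none of the authors' deposited tables (q of 0.0872, 0.329 and 0.186).

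Lig1 was the member that set the miR-182 inhibitor apart most. Lig1, the ligase that joins Okazaki fragments (locus chr7:13258966-13311433), had 8.53 FPKM with the miR-182 inhibitor, 3.68 with miR-203, 3.87 with miR-708 and 3.81 in the control. It rose with miR-182 (ratio 2.24, q = 0.00176 in the authors' deposited table), while the others lay near the control (q of 0.994 and 0.996). The miR-182 group stood 2.32-fold above the miR-203 group and 2.20-fold above the miR-708 group, the largest such ratios among the members, and the difference between inhibitors was not tested. The tables give the locus also to 6330408A02Rik. Fen1, the nuclease that trims Okazaki fragments before ligation, had 6.32, 5.57 and 6.47 FPKM and 3.59 FPKM in the control and missed the threshold in the authors' deposited tables (q of 0.282, 0.495 and 0.240).

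Chromatin factors of the fork had ratios above 1 throughout. Uhrf1, which recruits the maintenance DNA methyltransferase to newly copied DNA, had 7.39, 7.13 and 5.91 FPKM with the miR-182, miR-203 and miR-708 inhibitors and 4.41 FPKM in the control. It rose with miR-182 (q = 0.00819) and miR-203 (q = 0.0135) and was not called with miR-708 (q = 0.263) in the authors' deposited tables. Chaf1a and Chaf1b encode subunits of the chaperone that places histones on new DNA, and neither was called in the authors' deposited tables. Chaf1a had 2.59, 1.91 and 2.11 FPKM with the inhibitors and 1.30 FPKM in the control, and Chaf1b had 1.87, 1.27 and 1.25 FPKM and 1.14 FPKM in the control.

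Among the regulators of S phase entry, E2f1 was called and the E-type cyclins were not. E2f1 (chr2:154559406-154569892), the transcription factor of many of these genes, had 3.41, 3.13 and 3.19 FPKM with the miR-182, miR-203 and miR-708 inhibitors and 2.25 FPKM in the control. It rose with each, at ratios of 1.51, 1.39 and 1.41 (q of 0.00176, 0.0153 and 0.00176 in the authors' deposited tables). Ccne1, a cyclin that activates CDK2 at the start of S phase, had 18.8, 16.6 and 18.6 FPKM and 15.3 FPKM in the control. Ccne2, its close relative, had 6.74, 5.26 and 7.07 FPKM and 6.66 FPKM in the control, and neither cyclin was called in the authors' deposited tables.

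**Figure D3:**
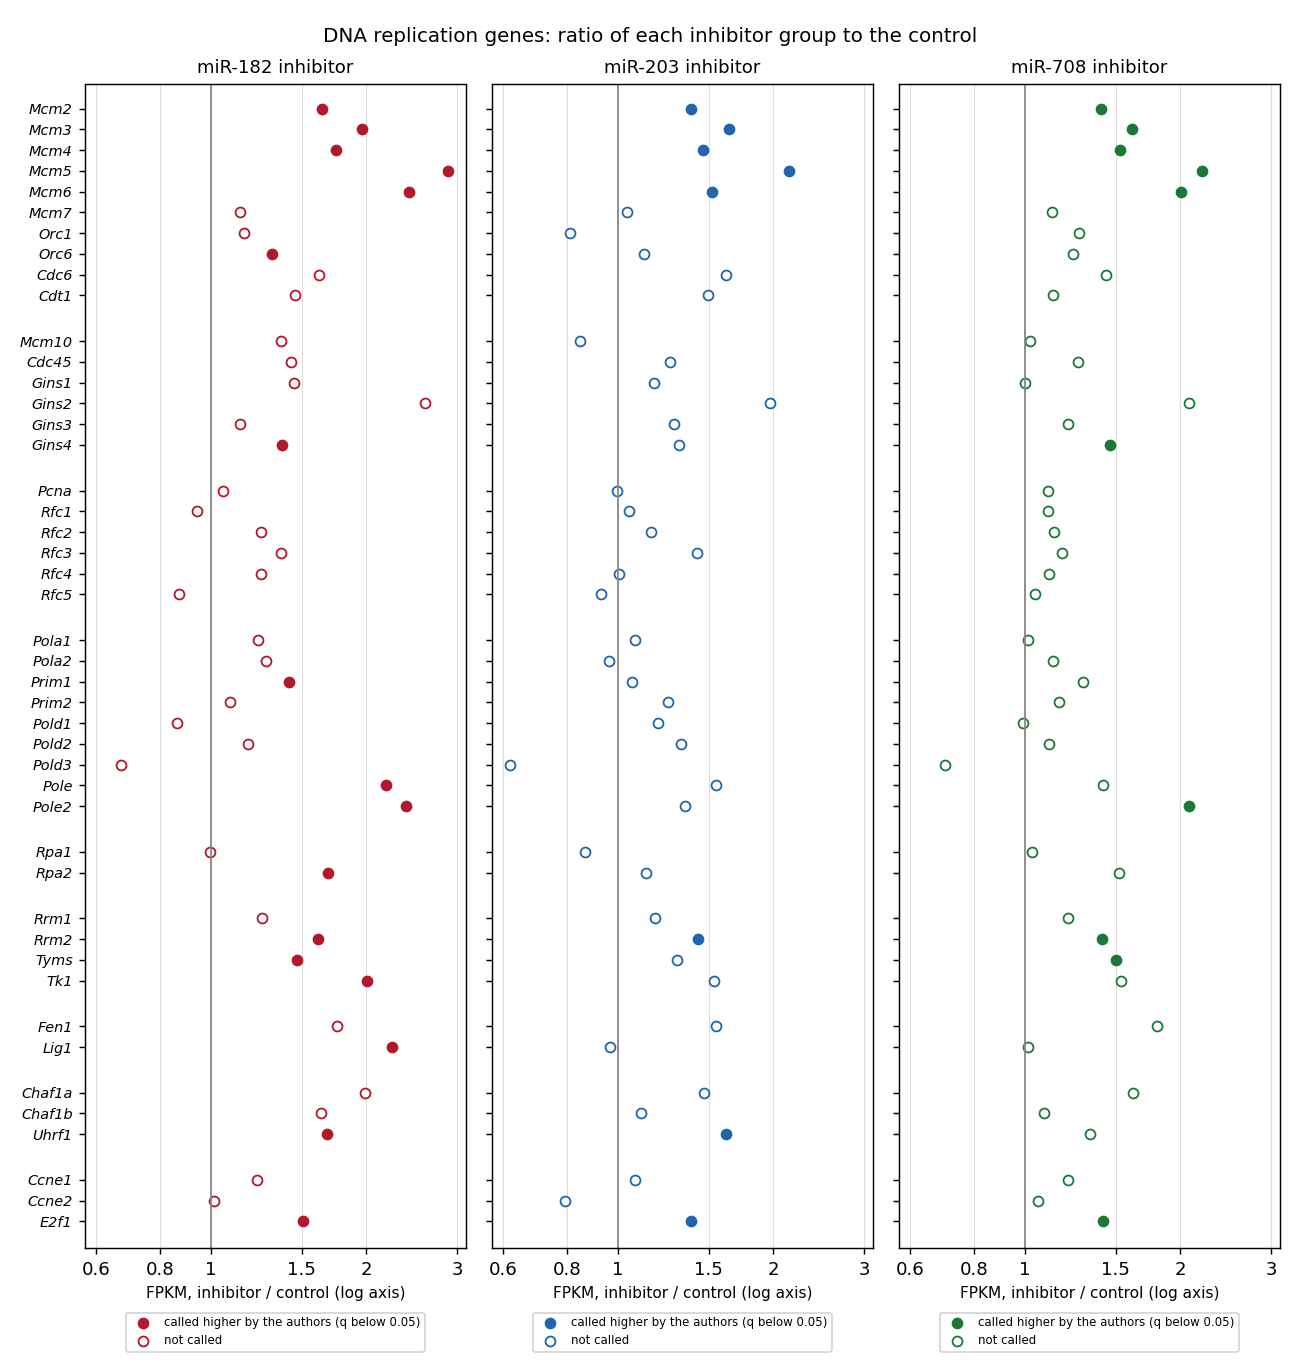
Ratio of inhibitor to control FPKM (log axis) for the 45 genes by role, 1 panel per inhibitor; filled points were called higher in the authors' deposited tables (q below 0.05) and open points were not called. Mcm2 to Mcm6, Rrm2 and E2f1 are filled in each panel, the clamp and clamp loader genes in none. For so few clamp genes, none lies near the share of all tested genes called higher (8.40%, 4.72% and 4.51%).

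The inhibitors differed in how many members stood highest. The miR-182 group held the highest of the 3 inhibitor values for 28 of 45 members, the miR-708 group for 10 and the miR-203 group for 7, and the miR-203 group held the lowest for 28. Member by member, the miR-182 value exceeded the miR-203 value in 36 of 45 genes with a median ratio of 1.14, where all tested genes had 0.996. It exceeded the miR-708 value in 32 genes with a median ratio of 1.12, where all tested genes had 1.00. These are ratios of pooled values, with no test of the difference between inhibitors.

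Sharing a locus went with fewer calls at a given ratio. The tables give 12 of the 45 members a locus that they share with other genes, and 2 of these 12 were called with the miR-182 inhibitor in the authors' deposited table, against 15 of the 33 members alone in their locus. The median ratios were 1.44 for the sharing members and 1.37 for the others. With the miR-182 inhibitor, 7.74% of all 5373 tested genes in shared loci were called in either direction. Of the 9018 tested genes alone in their locus, 18.7% were, so the gap is not particular to the members. Gins2 and Cdt1 lie in a single locus of 98 genes (chr8:119910359-124345724), where none of 81, 82 and 82 tested genes was called with the miR-182, miR-203 and miR-708 inhibitors in the authors' deposited tables. The smallest p-values in that locus were 0.062, 0.0414 and 0.0515 in those deposited tables.

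Among all tested genes with a ratio of at least 1.5 and a mean of at least 1 FPKM, the authors' deposited table for miR-182 called 40.8% of 385 in shared loci and 76.3% of 797 alone in their locus. The 5 members at a ratio of at least 1.5 with the miR-182 inhibitor that were not called were Gins2, Fen1, Chaf1a, Cdc6 and Chaf1b, and the tables place Gins2, Fen1 and Chaf1a in shared loci. Whether the locus assignment set their p-values was not tested.

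**Figure D4:**
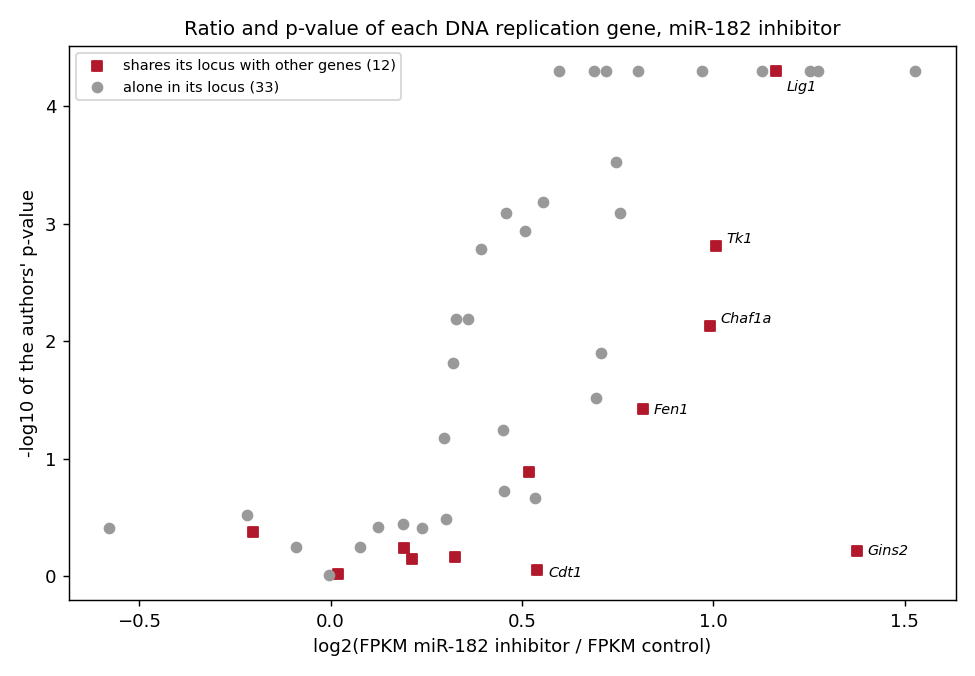
The authors' p-value as -log10 against log2 of miR-182 inhibitor over control FPKM for each member; squares share their locus with other genes and circles are alone in it. Gins2 lies far to the right at a p-value of 0.617, while Mcm5, the rightmost circle, lies at the smallest p-value of the table, 5e-05.

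Other genes of the pathway were read in the same tables. Of 85 further genes in 5 lists, 84 were tested, of which 17 rose and 2 fell with the miR-182 inhibitor, 8 rose and none fell with miR-203 and 10 rose and 1 fell with miR-708, by the authors' deposited tables. Of all tested genes, 8.40%, 4.72% and 4.51% rose and 6.23%, 2.51% and 3.05% fell. At an unadjusted p below 0.05 in the authors' deposited tables, 27, 17 and 21 of the further genes were higher and 6, 3 and 3 lower, where 14.3%, 9.84% and 9.97% of all tested genes were higher and 13.2%, 7.97% and 8.58% lower. Their median ratios were 1.17, 1.11 and 1.11 over all 85 genes, and by list they lay between 1.07 for the fork chromatin factors (miR-182 and miR-203) and 1.52 for the recombination and checkpoint genes (miR-182). Among 31 other replication factors, the authors' deposited tables called 4, 2 and 2 higher and 1, 0 and 1 lower; the counts of this list and of the nucleotide supply list are read against 8.40%, 4.72% and 4.51% of all tested genes called higher, and lie near that background. Top2a, the topoisomerase that untangles copied DNA, had 17.0, 13.7 and 14.2 FPKM with the miR-182, miR-203 and miR-708 inhibitors and 9.44 FPKM in the control, and rose with miR-182 (q = 0.00176) and was not called with the others (q of 0.0715 and 0.0506) in those deposited tables. Topbp1, a factor of helicase activation, rose with miR-182 (ratio 1.58) and miR-708 (ratio 1.38), and Chtf18, of an alternative clamp loader, rose with miR-203 (ratio 1.97) in the authors' deposited tables. The called member that fell was Recql4, a helicase needed for initiation, at ratios of 0.619 with miR-182 and 0.625 with miR-708 (q = 0.0460 in both of the authors' deposited tables).

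Of 13 other nucleotide supply genes, 1 rose with miR-182, none with miR-203 and 1 with miR-708 in the authors' deposited tables. These counts lie near the 8.40%, 4.72% and 4.51% of all tested genes that rose. With miR-203, 1 of the 13 had an unadjusted p below 0.05 in the higher and 1 in the lower direction. Of all tested genes, 9.84% and 7.97% did. The called gene was Impdh2, of guanine nucleotide synthesis, with 18.9, 15.3 and 17.5 FPKM and 12.5 FPKM in the control. Of 8 other fork chromatin factors, 3, 1 and 1 rose in the authors' deposited tables, where 8.40%, 4.72% and 4.51% of all tested genes did. Dnmt1, the maintenance DNA methyltransferase, rose with each inhibitor (7.30, 6.06 and 6.24 FPKM, and 4.52 FPKM in the control), while Asf1b (ratio 2.13) and Nasp (ratio 1.55), both histone chaperones, rose with miR-182.

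Of all tested genes, 8.40%, 4.72% and 4.51% rose and 6.23%, 2.51% and 3.05% fell in the authors' deposited tables. Among 21 E2F, RB and cyclin genes, 6, 3 and 4 rose and 1, 0 and 0 fell there. The gene that fell was Tfdp2, an E2F dimer partner (ratio 0.746, q = 0.0190 in the authors' deposited table for miR-182). E2f8, an E2F family repressor, had 1.25, 1.19 and 0.877 FPKM with the miR-182, miR-203 and miR-708 inhibitors and 0.340 FPKM in the control, with q = 0.00176 in each of the authors' deposited tables. Cdc25a, a phosphatase that activates CDK2, rose with each (ratios of 1.72, 1.34 and 1.48), and Ccna2, the S phase cyclin, with miR-182 (ratio 1.96) and miR-708 (ratio 1.59) in the authors' deposited tables. Of 12 recombination and checkpoint genes, 11 were tested, of which 3, 2 and 2 rose in the authors' deposited tables and none fell. Among all tested genes, 8.40%, 4.72% and 4.51% rose there. At an unadjusted p below 0.05 none of these 11 was lower in the authors' deposited tables and 4, 4 and 5 were higher. At that p, 13.2%, 7.97% and 8.58% of all tested genes were lower and 14.3%, 9.84% and 9.97% higher. Exo1, a nuclease, rose with each (ratios of 2.30, 2.05 and 2.36, with 0.209 FPKM in the control), and Brca1 rose with miR-182 (ratio 1.52) in the authors' deposited tables.

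E2F-type words were frequent in the promoters of replication genes, called or not. RefSeq promoters (250 bases before and 50 after the start) were matched by symbol for 37 members, with 43 promoters. At least 1 of the 4 words stood in 15 of these 43 promoters (34.9%), against 2.26% of all 32851 promoters of that length and 3.82% of the 12136 promoters of genes tested with the miR-182 inhibitor. By gene that was 15 of 37 members (40.5%), against 4.65% of tested genes. Such a word stood in 6 of the 14 members that rose with any inhibitor in the authors' deposited tables and 9 of the 23 called with none. Member promoters were richer in G and C (median 61.3%) than all promoters (52.7%). Between 53.5% and 66.2% G and C, the middle range of the members, 12 of 21 member promoters and 3.53% of all 10479 promoters held a word. CCAAT, on either strand, stood in promoters of 22 of 37 members (59.5%) and of 41.1% of all genes with a promoter. A word is a match of letters and says nothing of binding. Of the members that rose with each inhibitor, Mcm3, Mcm5 and Mcm6 held such words and Mcm4 had no promoter matched. Mcm2, E2f1 and Rrm2, which also rose with each, held none in this window. The E2f1 window, however, lies inside the deposited locus of E2f1 (chr2:154559406-154569892). Sequence before the start of that locus was not read, so the E2f1 result is limited to this inner stretch.

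**Figure D5:**
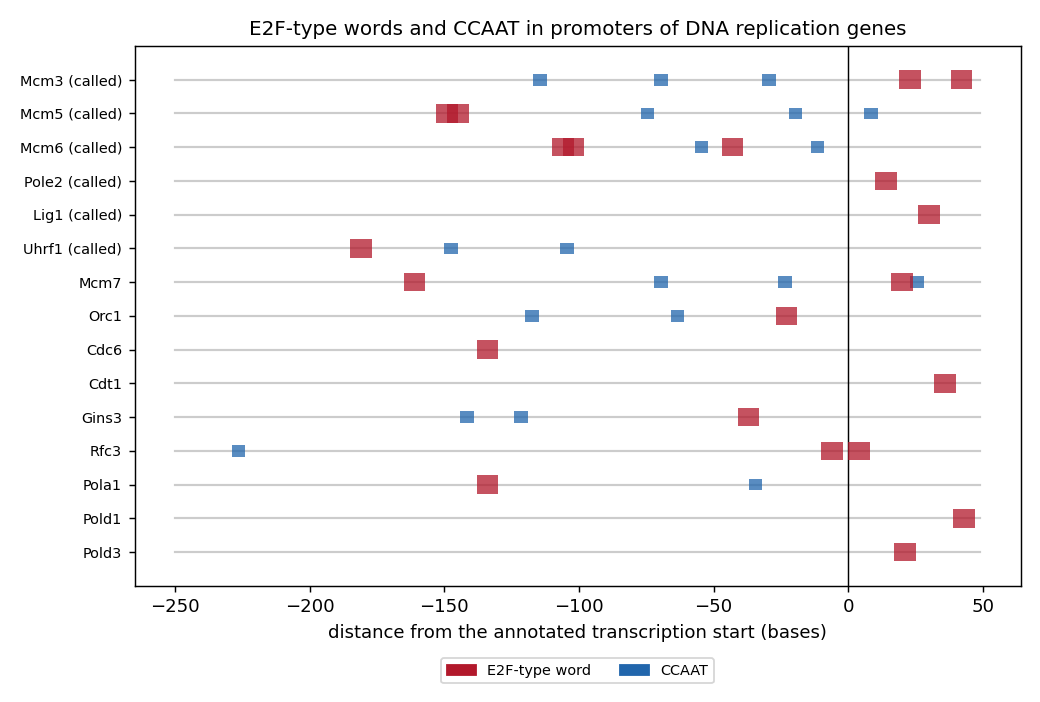
Position of E2F-type words (tall bars) and CCAAT (short bars) relative to the annotated transcription start (bases) in the 15 member promoters that hold an E2F-type word; members called higher with any inhibitor are at the top. The words lie between positions -185 and 46, in called and uncalled genes alike.

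Seed matches of the blocked microRNAs were counted next. In the longest 3′ untranslated region that GENCODE M21 gives for each gene, the 7 letters complementary to the seed stood in 2 of 45 members for miR-182 (Tk1 and Gins3), 1 for miR-203 (Pola1) and 6 for miR-708 (Chaf1a, Cdt1, Tk1, Tyms, Gins2 and Rfc3). As shares these were 4.44%, 2.22% and 13.3%, where all tested genes with such a region had 12.04%, 16.7% and 15.4%. The members' regions were shorter, with a median of 568 bases against 1147, 1146.5 and 1147.5 for all genes tested with the miR-182, miR-203 and miR-708 inhibitors. The sites in the members that were called with the inhibitor in question are shown, with the seed match in capitals.
Tk1, miR-182: cccttcttgaTTGCCAAgat
Tyms, miR-708 (the one nearest the stop codon of 3): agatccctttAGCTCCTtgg
Tyms, which holds no miR-182 match, rose with the miR-182 inhibitor too (ratio 1.47) in the authors' deposited table, and Tk1, which holds no miR-203 match, had a ratio of 1.54 with the miR-203 inhibitor that was not called. None of Mcm2 to Mcm6, Rrm2 or E2f1 held a match to any of the 3 seeds. Only full matches to the 7 seed letters in the longest region were counted, so a gene without one may hold other sites. Whether matches had a part in any of these ratios was not tested. Across all tested genes, the median ratio was 0.984 with and 0.998 without a miR-182 match, 0.998 and 0.992 for miR-203, and 0.971 and 0.994 for miR-708. Among the members it was 1.57 with (2 genes) and 1.42 without a miR-182 match. For miR-203 it was 1.08 with (1 gene) and 1.26 without, and for miR-708 1.52 with (6 genes) and 1.21 without.

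Markers of cell types were read in the same groups. The adipocyte markers Fabp4 (34042, 37047, 42888 and 37475 FPKM with the miR-182, miR-203 and miR-708 inhibitors and in the control) and Plin1 (645, 646, 587 and 649.6 FPKM) were high in every group, and of 8 adipocyte markers Cfd rose with each inhibitor and Adipoq and Cebpa with miR-182 in the authors' deposited tables. Lep, which encodes the adipocyte hormone leptin, reached at most 0.136 FPKM. Of 6 brown adipocyte markers, Ucp1 and Cidea fell with each inhibitor and Cox7a1 and Cox8b with miR-182 in the authors' deposited tables. Ucp1, the uncoupling protein of brown fat, had 67.7, 159 and 146 FPKM with the miR-182, miR-203 and miR-708 inhibitors and 203.03 FPKM in the control. Of 7 preadipocyte markers, 6 rose with each inhibitor in those deposited tables, and their summed level was 260 FPKM with miR-182, 189 with miR-203, 182.1 with miR-708 and 107 in the control. Like the sum over the replication genes, this sum was above the shared control with each inhibitor and highest with miR-182. The order of the other inhibitors differed: the replication genes came to 383 FPKM with miR-203 and 404 FPKM with miR-708. What part the preadipocyte markers' change had in the rise of the replication genes was not tested. In such bulk samples more dividing cells and more of these transcripts per cell cannot be told apart.

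Other cell types gave low summed levels. The 5 macrophage markers read came to 4.54, 6.92 and 5.56 FPKM with the miR-182, miR-203 and miR-708 inhibitors and 7.53 FPKM in the control, and Lyz2 fell with miR-182 in the authors' deposited table. Endothelial markers (6) came to 31.2, 22.9 and 25.7 FPKM and 23.6 FPKM in the control, nearly all of it Egfl7, while Pecam1 and Cdh5 reached at most 0.839 and 0.627 FPKM. Egfl7 shares its deposited locus with Agpat2, Fam69b and Gm20532, and how fragments were divided among these genes was not tested. Cdh5 rose with miR-182 and Pecam1 with miR-708 in the authors' deposited tables. Smooth muscle and pericyte markers (5) came to 29.3, 29.9 and 26.8 FPKM and 27.9 FPKM in the control, and in the authors' deposited tables Mylk rose and Cspg4 fell with each inhibitor and Myh11 rose with miR-182. Mesothelial (2 read) and skeletal muscle markers (2 read) came to at most 8.94 and 7.89 FPKM. In the authors' deposited tables Krt19 rose with miR-182, Myl1 rose with miR-203 and miR-708, and Des fell with each inhibitor. Leukocyte markers such as Ptprc were not analysed here.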

How the data were processed

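RNA of 8 samples in 4 groups of 2 was sequenced after a directional library preparation, per the labels' protocols. Cuffdiff 2.1.1, TopHat2 2.0.9 and the mm10 build are named, per the submitters' processing notes, and the options and annotation were not given in the sources used here. Deposited by the authors were FPKM, 1 pooled value per group, with a log2 fold change, a p-value and a q-value per gene, in 3 tables that share the same control FPKM. Recomputing the authors' log2 fold change from their FPKM matched it to 0.01 in 18931, 18929 and 18929 of 18933 genes. A gene whose p and q both equal 1 was read as untested, leaving 14391, 14371 and 14316 tested genes for the miR-182, miR-203 and miR-708 inhibitors.

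Ratios of FPKM and log2((inhibitor + 1) / (control + 1)), which understates changes of low genes, were computed in Python 3.11.15 with pandas 2.3.3; the steps were tested on simulated data. A call is the authors' q below 0.05. No SD, interval or test over samples could be computed from pooled values, and sequencing depth is unknown. The members, role groups and lists were chosen with earlier results of these data known. All 45 members were named, and of each further list the 3 called genes with the largest absolute log2 ratio averaged over the comparisons, of which 1 is not reported here; Recql4, Tfdp2 and the cell type markers named were chosen after their values were seen. Alternatives covered the q threshold, a renewed Benjamini-Hochberg adjustment, a filter on low FPKM, shared loci, the pseudocount and centring. The tables' mm10 and the reference GRCm38 are the same build, and gene loci are those of the tables.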

Additional observations from a re-analysis of the deposited data

How the results depend on the processing

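No paired analysis was possible because the deposited tables hold 1 pooled value per group, and leaving out single samples was likewise not possible. At q below 0.01 in the authors' deposited tables, 11 members rose with the miR-182 inhibitor in place of 17, and 4 with miR-203 in place of 8; the miR-708 count was 8 in place of 10. Adjusting the authors' p-values by the Benjamini-Hochberg method over the tested genes of each table gave 20, 9 and 10, and leaving out members in shared loci gave 15, 8 and 10. A mean of at least 1 FPKM gave 17, 8 and 9. The count of members called lower was 0 under each of these alternatives. The members' median log2 ratio, 0.40, 0.23 and 0.25, became 0.49, 0.32 and 0.28 with a pseudocount of 0.1 FPKM and 0.42, 0.24 and 0.27 when centred on the median of all genes. With a mean of at least 1 FPKM it was 0.41 for miR-182 and 0.26 for miR-708, and without members in shared loci 0.38 for miR-182. No called gene changed sign under the other pseudocount or the centring. Depth per sample is unknown, so how far it limits the calls of low members such as Cdc6 cannot be given.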
